A study of Mus musculus with 316 samples.

Results

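The 10 genes described here are those by which mouse haematopoietic stem cells (HSC) are recognised or held in their niche. They encode surface proteins, receptors and ligands, apart from Fgd5, which encodes a guanine nucleotide exchange factor. The genes are Kit, Ly6a, Slamf1, Cd48, Cd34, Procr, Fgd5, Adgrg1, Angpt1 and Tek. They were taken by symbol from the expression table, where all 10 were found among 21970 mouse gene rows. The genes were listed by name and not by a cut-off on measured values, but earlier results of these data were known when the list was made. The values below are read in single cells, alone and in combination.

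Single-cell RNA sequencing of polyA RNA had been done on 4 groups of mouse cells. ESC were embryonic stem cells, pluripotent cells kept in culture. FL_HSC were HSC of fetal liver. Eng_BM-HSC were HSC of bone marrow origin recovered after engraftment, and Eng_ES-HSC were cells of HSC type that had been made from embryonic stem cells, transplanted and recovered. The series title names Notch activation in cells made from pluripotent stem cells, but no label of a cell states a Notch treatment. The strain, the age, the host, the number of animals or cultures, the surface proteins used to isolate the cells and any treatment are not stated in the labels. If a gene here was used for sorting, its level and the gate cannot be told apart. No library identifier was shared between groups, so the effect of a library and that of a group cannot be told apart either, and each group counts as 1 sample with no replicate check.

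HSC supply all blood lineages, and in adult marrow they divide rarely. KIT is their receptor for stem cell factor, TEK (also called TIE2) is a receptor for the angiopoietins, and ANGPT1 is the angiopoietin that activates it in the bone marrow niche. In adult mouse marrow HSC are isolated by KIT and SCA-1 (encoded by Ly6a) on the surface, together with SLAMF1 (CD150) and without CD48, and the most primitive ones carry little CD34. Fetal liver HSC, by contrast, carry CD34.

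After near-identical profiles had been joined and cells with fewer than 1000 genes left out, 77 of 78 ESC and 87 of 94 FL_HSC cells remained. In Eng_BM-HSC 76 of 95 cells remained, and in Eng_ES-HSC 21 of 49. The median number of genes per kept cell was 5433, 4233, 2585 and 1609 in that order, and the median share of TPM from mitochondrial genes was 19.8%, 9.31%, 13.4% and 20%. A gene counts as detected in a cell at 1 TPM or more, where TPM is transcripts scaled to a fixed total per cell. TPM keeps no read depth, so a gene listed at 0 may be unexpressed or missed. In 3 groups the markers that go with the label were found: at least 2 of 8 pluripotency genes were detected in 77 of 77 ESC, and at least 2 of 14 HSC transcription factors in 87 of 87 FL_HSC and 76 of 76 Eng_BM-HSC cells. In Eng_ES-HSC only 12 of 21 cells had at least 2 of those factors, and Meis1, Erg, Mecom and Hoxa9 were not detected. At least 2 of 12 granulocyte markers were found in 19 of 21 Eng_ES-HSC cells, 37 of 87 FL_HSC, 24 of 76 Eng_BM-HSC and 13 of 77 ESC. Markers of other lineages were thus not confined to Eng_ES-HSC. In FL_HSC 58 cells had at least 2 erythroid, 56 at least 2 megakaryocyte and platelet, and 53 at least 2 endothelial markers. Eng_ES-HSC is called by its label and not by a cell type.

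Fetal liver and engrafted bone marrow cells shared a core of Adgrg1, Angpt1, Cd34 and Kit, and the cells labelled Eng_ES-HSC mostly lacked it. For Adgrg1 the share of cells with the transcript was 95.4% in FL_HSC, 96.1% in Eng_BM-HSC but 19% in Eng_ES-HSC. Slamf1, Cd48, Procr and Tek were detected in a larger share of FL_HSC than of Eng_BM-HSC cells and Ly6a in a smaller one, but the 95% intervals of Procr overlapped, and of these 4 genes Slamf1 alone was still at least 1 log2 unit lower in Eng_BM-HSC when cells were matched on gene number. The mean TPM of Cd48, Procr and Tek was higher in Eng_BM-HSC. ESC had Kit and Ly6a but nearly none of the others apart from Tek and Adgrg1 in a minority of cells.

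**Figure D1:**
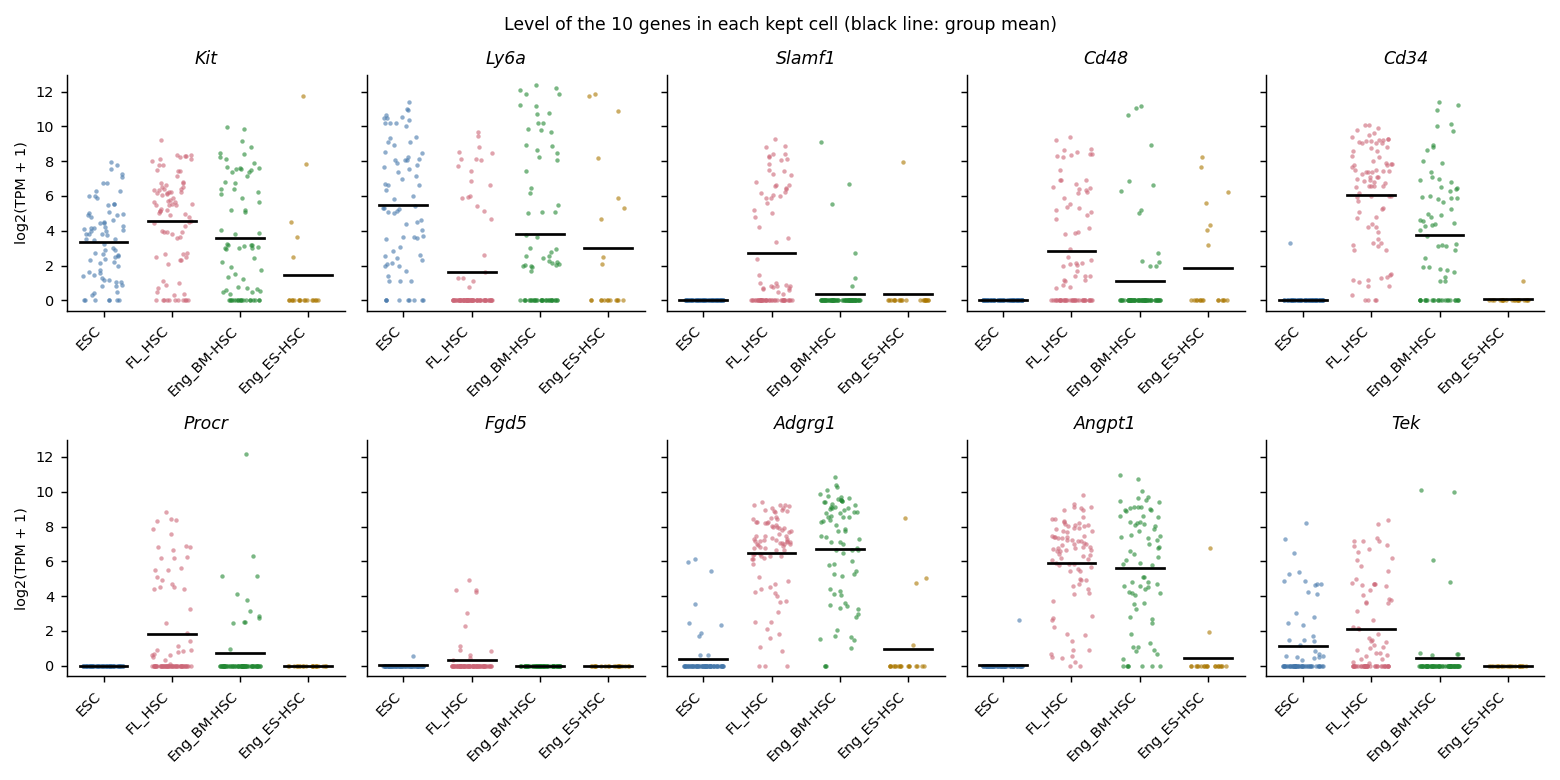
Level of each of the 10 genes in each kept cell, as log2(TPM + 1), with cells as points, 1 column of points per group (77, 87, 76 and 21 cells) and the group mean as a black line. Adgrg1 and Angpt1 form high clouds in FL_HSC and Eng_BM-HSC, with means between 5.63 and 6.71, while in ESC and Eng_ES-HSC most points lie at 0.

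Kit, the receptor tyrosine kinase for stem cell factor, lies on GRCm38 at chr5:75574916-75656722 on the plus strand (GENCODE M21). Kit ranged from 0.0 to 248.4 TPM in ESC with a median of 10.4. Its range was 0.0 to 606.1 TPM in FL_HSC with a median of 36.2, and 0.0 to 1017.4 TPM in Eng_BM-HSC with a median of 7.24. In Eng_ES-HSC Kit ranged from 0.0 to 3435.7 TPM, with a median of 0.0. All groups therefore overlapped, and Eng_ES-HSC was the only one with most cells at 0. Kit was detected in 83.1% of ESC (exact 95% interval 72.9% to 90.7%), 80.5% of FL_HSC (70.6% to 88.2%), 64.5% of Eng_BM-HSC (52.7% to 75.1%) and 23.8% of Eng_ES-HSC cells (8.22% to 47.2%). The interval of Eng_ES-HSC lies wholly under those of the other 3 groups, whose own neighbours overlap.

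The mean log2(TPM + 1) of Kit was 3.35 ± 2.19 (SD over 77 cells) in ESC, 4.54 ± 2.70 (87 cells) in FL_HSC, 3.58 ± 3.26 (76 cells) in Eng_BM-HSC and 1.44 ± 3.13 (21 cells) in Eng_ES-HSC. Eng_ES-HSC was thus lower than Eng_BM-HSC by a log2 difference of -2.14, but on the scale of mean TPM the order turned. There Eng_ES-HSC had 176.1 TPM against 91.8 TPM in Eng_BM-HSC, and 1 cell supplied 92.9% of the Eng_ES-HSC sum. Without that cell the Eng_ES-HSC mean was 13.1 TPM. Kit also moved with the number of genes detected in a cell. When FL_HSC and Eng_BM-HSC cells were matched on gene number to the 21 Eng_ES-HSC cells, Kit was detected in 38.1% (18.1% to 61.6%), 52.4% (29.8% to 74.3%) and 23.8% of cells, with intervals that overlap, and the mean log2 values were 2.06, 2.21 and 1.44. The FL_HSC excess over ESC of 1.19 turned to -1.29 with those 21 FL_HSC cells, while ESC cells stayed unmatched.

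The Kit promoter is shown with those of Cd34, Slamf1 and Cd48, 4 genes whose windows hold the core AGGAAG. ETS factors, such as ERG and FLI1 of HSC, bind this core. The windows were chosen for holding it, so their sharing it is not a result. The sequences are RefSeq windows on GRCm38.p6 from 250 bases before to 50 bases after the annotated start, on the plus strand, and capitals mark 6-letter matches on either strand (AGGAAG, or CTTCCT where it reads on the other strand). The Kit window is at chr5:75574737-75575036, Cd34 at chr1:194938571-194938870, Slamf1 at chr1:171766882-171767181 and Cd48 at chr1:171681742-171682041.
Kit: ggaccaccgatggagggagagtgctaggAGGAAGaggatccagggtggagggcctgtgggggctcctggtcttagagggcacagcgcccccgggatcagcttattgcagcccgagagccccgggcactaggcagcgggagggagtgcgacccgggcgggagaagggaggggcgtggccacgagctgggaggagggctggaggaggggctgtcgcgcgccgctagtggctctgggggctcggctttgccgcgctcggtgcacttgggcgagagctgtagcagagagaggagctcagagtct
Cd34: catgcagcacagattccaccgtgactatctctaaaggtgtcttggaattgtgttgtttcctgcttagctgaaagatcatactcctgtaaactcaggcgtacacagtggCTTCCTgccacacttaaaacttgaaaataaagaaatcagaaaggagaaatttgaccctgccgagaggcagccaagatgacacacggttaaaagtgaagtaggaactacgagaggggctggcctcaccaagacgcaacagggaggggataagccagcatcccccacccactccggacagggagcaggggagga
Slamf1: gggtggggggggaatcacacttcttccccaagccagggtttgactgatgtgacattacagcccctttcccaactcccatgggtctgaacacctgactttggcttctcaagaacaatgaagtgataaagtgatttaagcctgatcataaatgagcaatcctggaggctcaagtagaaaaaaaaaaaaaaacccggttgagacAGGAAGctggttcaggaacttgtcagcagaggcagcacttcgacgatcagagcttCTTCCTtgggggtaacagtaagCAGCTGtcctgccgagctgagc
Cd48: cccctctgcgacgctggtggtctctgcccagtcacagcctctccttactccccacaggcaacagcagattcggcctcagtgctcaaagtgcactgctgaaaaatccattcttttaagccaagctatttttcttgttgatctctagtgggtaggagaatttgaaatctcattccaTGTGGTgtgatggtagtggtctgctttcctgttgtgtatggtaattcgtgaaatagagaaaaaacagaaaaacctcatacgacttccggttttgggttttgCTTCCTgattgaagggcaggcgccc
The further capitals are CAGCTG, an E-box of the kind bound by TAL1 and its partners, in Slamf1, and TGTGGT, a core bound by RUNX factors, in Cd48. The Kit window was rich in G and C, at 69% with 20 CpG, while Cd34 (50%, 7 CpG), Slamf1 (49%, 4 CpG) and Cd48 (47.3%, 7 CpG) lay near the median of all windows (52.7%, 7 CpG).

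Windows were found for 8 of the 10 genes, with Ly6a and Angpt1 the exceptions. The ETS core was in 5 of these 8 genes (Kit, Slamf1, Cd48, Cd34 and Fgd5), and in 35.4% of all 32851 RefSeq windows of 300 bases. The GATA core AGATAA was in Tek only and in 11.2% of all windows. The RUNX core was in Cd48 only and in 16.8% of all windows, and the E-box was in Slamf1 and Procr and in 16.3%. No motif was shared by all 8 genes. The windows of Adgrg1, which gave one of the widest separations between groups, matched none of these motifs. Such short matches describe the letters and do not show that a factor binds.

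Ly6a, which encodes the anchored surface protein SCA-1, lies at chr15:74994877-74998031 on the minus strand in a family of related genes, so reads may have been split between relatives. Ly6a ranged from 0.0 to 2748.3 TPM in ESC with a median of 38.4, and from 0.0 to 827.4 TPM in FL_HSC with a median of 0.0. It ranged from 0.0 to 5288.1 TPM in Eng_BM-HSC with a median of 3.37, and from 0.0 to 3783.5 TPM in Eng_ES-HSC with a median of 0.0. Fetal liver thus had the lowest top value of all groups. Detection was 88.3% (79% to 94.5%) in ESC, 26.4% (17.6% to 37%) in FL_HSC, 59.2% (47.3% to 70.4%) in Eng_BM-HSC and 42.9% (21.8% to 66%) in Eng_ES-HSC. The FL_HSC interval lies under that of Eng_BM-HSC and overlaps that of Eng_ES-HSC.

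Mean log2(TPM + 1) of Ly6a was 1.61 ± 3.02 in FL_HSC, 3.82 ± 4.31 in Eng_BM-HSC, 3.0 ± 4.30 in Eng_ES-HSC and 5.50 ± 3.52 in ESC (SD over cells). Eng_BM-HSC exceeded FL_HSC by 2.21, and this difference stayed between 1.36 and 3.27 under every alternative tried. Ly6a was the only gene of the 10 that was at least 1 log2 unit higher in Eng_ES-HSC than in FL_HSC, by 1.40, and this difference was 0.14 with no minimum of genes per cell. It was also the only one at least 1 unit higher in Eng_BM-HSC than in FL_HSC in all kept cells. Its excess in ESC depended on the cells used: among cells with 1000 to 3000 genes, which left only 6 ESC, the FL_HSC value exceeded that of ESC by 0.20. Ly6e, a relative in the same family, was detected in 78.2% of FL_HSC, 86.8% of Eng_BM-HSC, 85.7% of Eng_ES-HSC and 79.2% of ESC cells, and so did not show the low share of Ly6a in fetal liver.

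Cd34, which encodes a mucin-like surface protein of early blood cells and of vessels, gave one of the widest separations. It lies at chr1:194938819-194961279 on the plus strand and overlaps the antisense gene Gm16897, and since the strand setting of the counting is unknown here, reads of the pair cannot be told apart. In FL_HSC it ranged from 0.0 to 1088.7 TPM with a median of 116.8, and in Eng_BM-HSC from 0.0 to 2662.5 TPM with a median of 10.1. A single ESC had it, at 8.90 TPM, and a single Eng_ES-HSC cell, at 1.20 TPM. Cd34 was detected in 92% of FL_HSC (84.1% to 96.7%), 68.4% of Eng_BM-HSC (56.7% to 78.6%), 4.76% of Eng_ES-HSC (0.120% to 23.8%) and 1.30% of ESC (0.0329% to 7.02%).

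Both stem cell groups thus lay above Eng_ES-HSC and ESC in Cd34, and FL_HSC above Eng_BM-HSC, with intervals that do not meet. The mean log2(TPM + 1) of Cd34 was 6.03 ± 2.95 in FL_HSC, 3.77 ± 3.45 in Eng_BM-HSC, 0.05 ± 0.25 in Eng_ES-HSC and 0.04 ± 0.38 in ESC. In cells matched on gene number Cd34 was detected in 90.5% of FL_HSC (69.6% to 98.8%), 76.2% of Eng_BM-HSC (52.8% to 91.8%) and 4.76% of Eng_ES-HSC cells. The mean of log2(TPM + 1) in the matched cells was 4.43 for FL_HSC and 3.53 for Eng_BM-HSC, beside 0.05 for Eng_ES-HSC. The difference of -2.26 between Eng_BM-HSC and FL_HSC in all kept cells was as small as -0.26 among the alternatives.

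Adgrg1 (GPR56), an adhesion G protein-coupled receptor of HSC, and Angpt1, the TEK ligand, were each detected in most FL_HSC and Eng_BM-HSC cells and in a minority of the cells of the other groups. Adgrg1 lies at chr8:94974751-95014217 on the plus strand. It ranged from 0.0 to 690.0 TPM in FL_HSC with a median of 139.0, and from 0.0 to 1828.2 TPM in Eng_BM-HSC with a median of 193.1. In Eng_ES-HSC 17 of 21 cells were at 0 and the highest cell had 362.1 TPM, and in ESC 67 of 77 cells were at 0 and the highest had 69.6 TPM. Ranges overlapped, but a typical fetal liver or bone marrow cell had the transcript and a typical cell of the other groups had none. The 95% intervals of the share detected were 88.6% to 98.7% in FL_HSC, 88.9% to 99.2% in Eng_BM-HSC, 5.45% to 41.9% in Eng_ES-HSC and 4.59% to 19.4% in ESC.

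Mean log2(TPM + 1) of Adgrg1 was 6.45 ± 2.38 in FL_HSC, 6.71 ± 2.95 in Eng_BM-HSC, 0.93 ± 2.28 in Eng_ES-HSC and 0.40 ± 1.26 in ESC. Eng_ES-HSC lay below Eng_BM-HSC by -5.79, within -8.32 to -3.41 under the alternatives. At matched gene number Adgrg1 was detected in 81% of FL_HSC (58.1% to 94.6%), 95.2% of Eng_BM-HSC (76.2% to 99.9%) and 19% of Eng_ES-HSC cells. Of the 19 Eng_BM-HSC cells left out for having fewer than 1000 genes, 14 had Adgrg1 (73.7%, 48.8% to 90.9%), at a mean of 1509.1 TPM over the 19, while 8 had Angpt1, 6 had Ly6a and 1 had Kit. Of the 7 FL_HSC cells left out, 1 had Adgrg1 (14.3%). Of the 26 Eng_ES-HSC cells left out, 0 had Adgrg1 (upper bound 13.2%).

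Angpt1 lies at chr15:42424723-42676977 on the minus strand and overlaps the antisense gene Gm17473. Angpt1 ranged from 0.0 to 906.6 TPM in FL_HSC with a median of 104.7, and from 0.0 to 2030.6 TPM in Eng_BM-HSC with a median of 71.2. It was detected in 89.7% of FL_HSC (81.3% to 95.2%) and 85.5% of Eng_BM-HSC cells (75.6% to 92.5%). In Eng_ES-HSC 2 cells had it, at 2.78 and 109.6 TPM (9.52%, 1.17% to 30.4%), and in ESC 1 cell, at 5.11 TPM. The niche ligand was thus transcribed in most cells of both stem cell groups, and FL_HSC and Eng_BM-HSC did not differ beyond their intervals.

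Mean log2(TPM + 1) of Angpt1 was 5.91 ± 2.59 in FL_HSC, 5.63 ± 3.25 in Eng_BM-HSC, 0.41 ± 1.52 in Eng_ES-HSC and 0.03 ± 0.30 in ESC. The difference of -5.22 between Eng_ES-HSC and Eng_BM-HSC stayed within -7.81 to -2.89 under the alternatives. At matched gene number the shares were 76.2% in FL_HSC (52.8% to 91.8%), 81% in Eng_BM-HSC (58.1% to 94.6%) and 9.52% in Eng_ES-HSC.

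Tek, the receptor tyrosine kinase that ANGPT1 activates, did not follow its ligand. It lies at chr4:94739289-94874976 on the plus strand. Tek ranged from 0.0 to 336.9 TPM in FL_HSC with a median of 0.651, and was detected in 47.1% of those cells (36.3% to 58.1%). In Eng_BM-HSC it was detected in 4 of 76 cells (5.26%, 1.45% to 12.9%), at 27.1 to 1082.1 TPM. ESC had it in 21 of 77 cells (27.3%, 17.7% to 38.6%), at 1.23 to 291.5 TPM, and no Eng_ES-HSC cell had it, where 0 of 21 allows a share of up to 14.3%. Fetal liver and ESC thus lay above engrafted bone marrow in this receptor, and their own intervals touch.

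Mean log2(TPM + 1) of Tek was 2.11 ± 2.61 in FL_HSC, 0.44 ± 1.82 in Eng_BM-HSC and 1.13 ± 2.02 in ESC. The step of -1.67 from FL_HSC to Eng_BM-HSC turned to 0.19 on the scale of mean TPM, where 1 cell supplied 49.3% of the Eng_BM-HSC sum. Tek also moved with gene number: in FL_HSC cells up to the median of 4233 genes 29.5% had it, and 65.1% of those above. At matched gene number Tek was in 9.52% of FL_HSC cells (1.17% to 30.4%) and 0 of 21 cells of Eng_BM-HSC and of Eng_ES-HSC, so a difference between these groups was not detectable there. Tie1, the partner receptor of TEK, was detected in 27.6% of FL_HSC, 10.5% of Eng_BM-HSC, and 0 cells of ESC and Eng_ES-HSC, and so unlike Tek it was not found in ESC. Vessel cells also express Tek and Tie1, and the summed level of 8 endothelial markers had a median of 83.3 TPM in FL_HSC (0.0 to 640.6), 0.0 in Eng_BM-HSC (0.0 to 1160.5), 0.389 in ESC (0.0 to 84.2) and 0.0 in Eng_ES-HSC (0.0 to 3.64). Of the 41 FL_HSC cells with Tek 33 had at least 2 of these markers, against 20 of 46 without it. Among these markers, Egfl7 was in 58.6% of FL_HSC cells, Emcn in 50.6%, Pecam1 and Robo4 in 29.9% each, Cdh5 in 13.8%, and Cldn5 in no cell of any group. The part of vessel cells in the Tek result was not tested.

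Slamf1 and Cd48, neighbours on chromosome 1 that encode receptors of the SLAM family, were each detected in the largest share of cells in FL_HSC. Slamf1 lies at chr1:171767127-171801184 and Cd48 at chr1:171682009-171705258, both on the plus strand and 61.9 kb apart. Slamf1 ranged from 0.0 to 625.4 TPM in FL_HSC with a median of 0.624, and was detected in 42.5% of cells (32% to 53.6%). In Eng_BM-HSC it was detected in 5 of 76 cells (6.58%, 2.17% to 14.7%), at 1.41 to 545.0 TPM. A single Eng_ES-HSC cell had it, at 245.3 TPM (4.76%, 0.120% to 23.8%), and 0 of 77 ESC, which allows up to 3.90%. The fetal liver share lay above all others with no overlap of intervals.

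The mean log2(TPM + 1) of Slamf1 was 2.70 ± 3.31 in FL_HSC, 0.38 ± 1.73 in Eng_ES-HSC and 0.34 ± 1.46 in Eng_BM-HSC. The difference between the engrafted groups was 0.03. The step from FL_HSC to Eng_BM-HSC of -2.35 stayed within -3.76 to -1.21 under the alternatives, and at matched gene number Slamf1 was in 33.3% of FL_HSC cells (14.6% to 57%) and 0 of 21 Eng_BM-HSC cells (upper bound 16.1%).

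Cd48 encodes the ligand of the receptors CD2 and CD244 and is carried by differentiating blood cells in adult marrow. Cd48 ranged from 0.0 to 667.8 TPM in FL_HSC with a median of 1.66, and was detected in 55.2% of cells (44.1% to 65.9%). In Eng_BM-HSC it ranged up to 2355.9 TPM, in 18.4% of cells (10.5% to 29%), and in Eng_ES-HSC up to 308.0 TPM, in 33.3% of cells (14.6% to 57%). No ESC had it. FL_HSC and Eng_BM-HSC did not overlap in their intervals, and Eng_ES-HSC overlapped both.

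The mean log2(TPM + 1) of Cd48 was 2.84 ± 3.18 in FL_HSC, 1.87 ± 2.91 in Eng_ES-HSC and 1.09 ± 2.73 in Eng_BM-HSC. Cd48 was the one gene of the set with a higher mean than ESC in Eng_ES-HSC by at least 1 unit, at 1.87. The FL_HSC excess over Eng_BM-HSC was lost as mean TPM, where Eng_BM-HSC was higher by 0.50. All 7 Eng_ES-HSC cells with Cd48 had at least 2 granulocyte markers, as did 19 of the 21 cells. Among the receptors of CD48, Cd2 was detected in 5 of 21 Eng_ES-HSC cells and in none of FL_HSC and Eng_BM-HSC, and Cd244 in 1 cell each of FL_HSC and Eng_ES-HSC.

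Procr and Fgd5 are used to isolate adult HSC, Procr as the surface receptor of protein C (EPCR) and Fgd5, a guanine nucleotide exchange factor, through reporter mice. Procr, at chr2:155751117-155755471 on the plus strand, ranged from 0.0 to 464.5 TPM in FL_HSC with a median of 0.0. It was detected in 32.2% of FL_HSC (22.6% to 43.1%) and 15.8% of Eng_BM-HSC cells (8.43% to 26%), and in 0 of 21 Eng_ES-HSC and 0 of 77 ESC. The Eng_BM-HSC and FL_HSC intervals overlap. One Eng_BM-HSC cell at 4539.6 TPM made up 95.6% of that group's sum, and the step of -1.14 from FL_HSC to Eng_BM-HSC turned to 0.91 as mean TPM. Fgd5, at chr6:91978878-92076004 on the plus strand, was the rarest of the 10, in 7 of 87 FL_HSC cells (8.05%, 3.30% to 15.9%) at up to 28.8 TPM and in no cell of the other groups. Its 0 of 76 in Eng_BM-HSC allows a share of up to 3.95%, and its 0 of 21 in Eng_ES-HSC up to 14.3%, which is above the share in fetal liver.

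**Figure D2:**
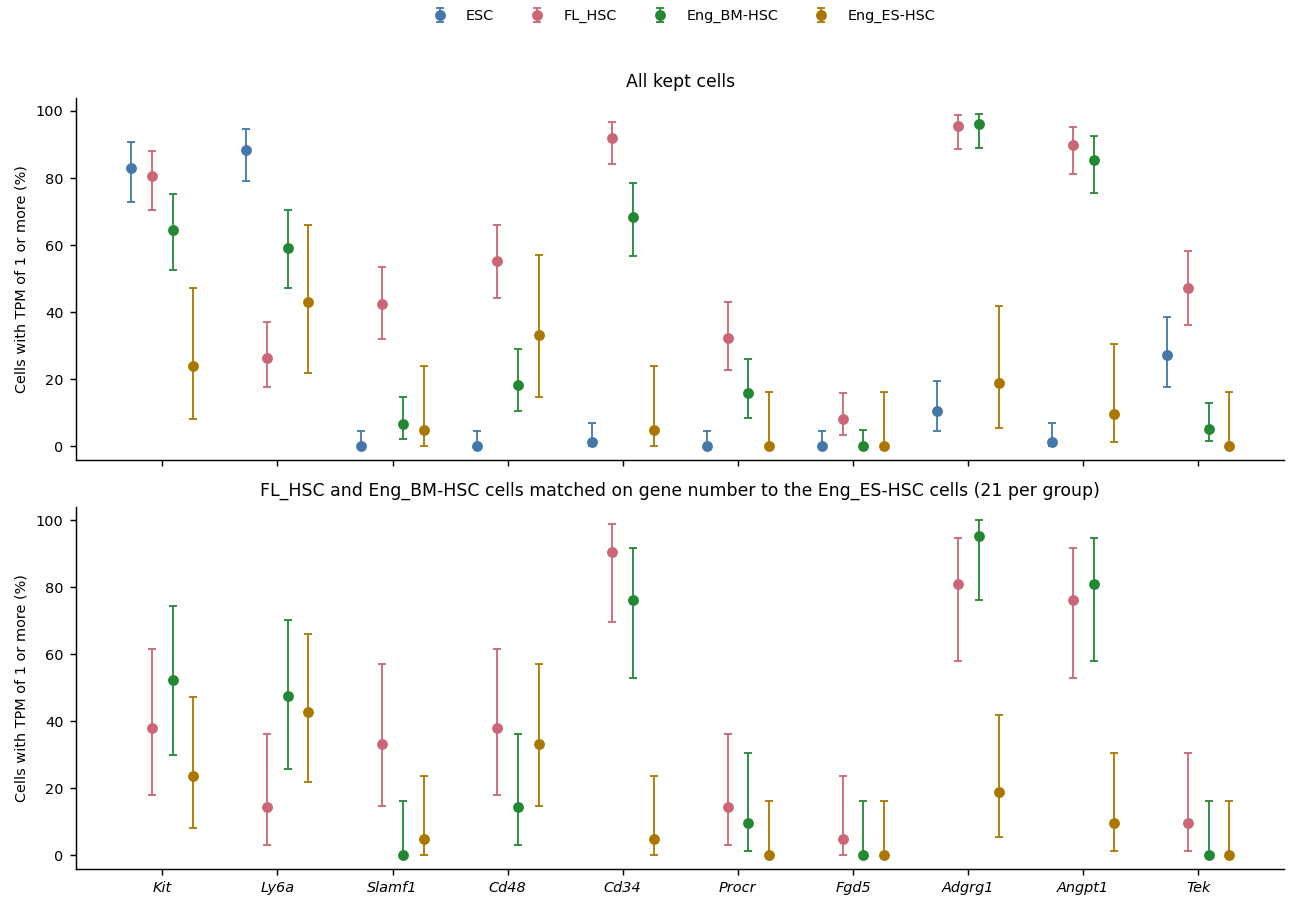
Share of cells, in percent, in which each gene was detected, with the exact 95% interval as a line and 1 colour per group. The upper panel holds all kept cells and the lower panel 21 cells per group matched on gene number, with no ESC. In both panels Eng_ES-HSC lies far under FL_HSC and Eng_BM-HSC for Cd34, Adgrg1 and Angpt1, while for Kit it overlaps them in the lower panel.

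Each comparison can be read against all genes. A filter that asked for a mean of 1 TPM in any group left 13239 genes, all 10 members among them. In Eng_ES-HSC 8.55% of these genes were lower than in Eng_BM-HSC and 2.22% higher, by a log2 difference of 1 or more. Of the 10 members 4 were lower there (Kit, Cd34, Adgrg1 and Angpt1) and 0 higher, with a median difference of -0.76 over the members and -0.10 over all genes. Eng_ES-HSC against FL_HSC gave 7 members lower and 1 higher, with 35% and 2.26% of all genes, and medians of -2.22 and -0.52. The count of 7 turned on the cells used: it was 4 among cells matched on gene number and among cells with 1000 to 3000 genes, since Kit, Procr and Tek were then lower by less than 1. The share of all genes was not computed for these subsets.

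For Eng_BM-HSC against FL_HSC 5 members were lower (Slamf1, Cd48, Cd34, Procr and Tek) and 1 higher, while 29.1% of all genes were lower and 1.84% higher. The medians were -1.05 for members and -0.39 for all genes. Only 1 of the 5, Slamf1, was still lower by 1 when the cells were matched on gene number, and 3 members, Ly6a, Adgrg1 and Angpt1, were then higher by at least 1. Among cells with 1000 to 3000 genes 1 was lower and 4 were higher. For both subsets the share of all genes was not computed, so these counts cannot be set against it. FL_HSC against ESC gave 7 members higher and 1 lower, with 10.7% and 17.7% of all genes, and medians of 2.27 and -0.12. Eng_BM-HSC against ESC gave 4 higher and 1 lower, with 3.22% and 35.6% of all genes. Eng_ES-HSC against ESC gave 1 higher (Cd48) and 3 lower (Kit, Ly6a and Tek), with 2.23% and 40.9% of all genes, and a member median of 0.01 against -0.68 for all genes. The comparisons share groups and are not independent of each other.

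The number of the 10 genes detected in a cell had a median of 6 in FL_HSC (range 2 to 9), 4 in Eng_BM-HSC (1 to 7), 2 in ESC (0 to 4) and 1 in Eng_ES-HSC (0 to 5). At least 5 of the genes were found together in 63 of 87 FL_HSC cells (72.4%), 31 of 76 Eng_BM-HSC cells (40.8%), 2 of 21 Eng_ES-HSC cells (9.52%) and 0 of 77 ESC. No cell had all 10. Cells with none of them made up 33.3% of Eng_ES-HSC (7 cells, 14.6% to 57%) and 2.60% of ESC (2 cells), and there was no such cell in FL_HSC or Eng_BM-HSC.

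**Figure D3:**
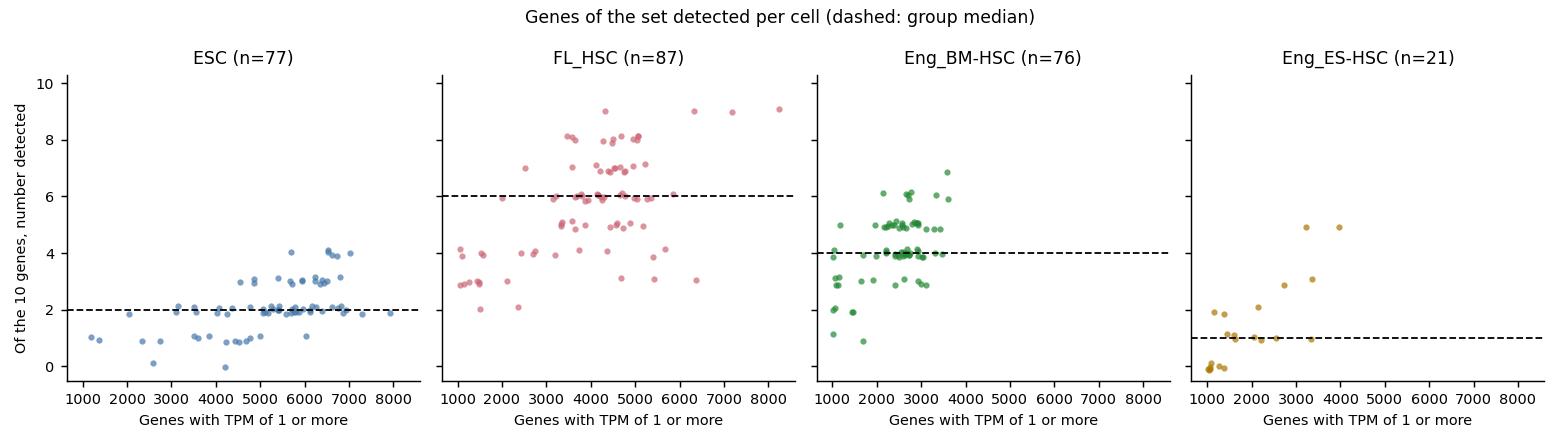
Number of the 10 genes detected in each cell against the number of all genes detected in it, with a panel for each group, points for cells (moved slightly up or down to part them) and a dashed line at the group median. The medians are 2, 6, 4 and 1, and within each group cells with more genes tend to have more of the set.

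The number of members rose with the number of genes detected in a cell, with a Pearson r of 0.56 over 77 ESC, 0.58 over 87 FL_HSC, 0.56 over 76 Eng_BM-HSC and 0.79 over 21 Eng_ES-HSC cells. The cells of a group share a library, and both numbers count detected genes, so these values are a description. In the upper part of each group by gene number the mean was 6.37 members in FL_HSC and 2.30 in Eng_ES-HSC, and in the lower part 5.02 and 0.545. All 7 Eng_ES-HSC cells with no member were in the lower part, of 11 cells.

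ESC were the most uniform, with 12 distinct patterns, and 37 of 77 cells (48.1%) had Kit and Ly6a and nothing else of the set. A further 12 ESC had Kit, Ly6a and Tek. FL_HSC had 53 patterns among 87 cells, and the most common one, Kit with Cd48, Cd34, Procr, Adgrg1 and Angpt1, was found in 5 cells (5.75%). In 4 FL_HSC cells all genes but Fgd5 were detected. Eng_BM-HSC had 34 patterns, led by Kit with Cd34, Adgrg1 and Angpt1 in 9 cells (11.8%). Eng_ES-HSC had 10, led by no member at all in 7 cells and Ly6a alone in 4.

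Kit and Ly6a together, the transcripts of the proteins that define the KIT+ SCA-1+ gate, were found in 74% of ESC (62.8% to 83.4%), 24.1% of FL_HSC (15.6% to 34.5%), 36.8% of Eng_BM-HSC (26.1% to 48.7%) and 14.3% of Eng_ES-HSC cells (3.05% to 36.3%). The pair of transcripts was thus most frequent in pluripotent cells, and the intervals of FL_HSC, Eng_BM-HSC and Eng_ES-HSC overlap. Pair-bearing cells of the groups differed in Adgrg1, which was in 21 of 21 such cells of FL_HSC (83.9% to 100%), 28 of 28 of Eng_BM-HSC (87.7% to 100%), 1 of 3 of Eng_ES-HSC and 7 of 57 ESC (12.3%, 5.08% to 23.7%). The shares over all cells of FL_HSC, Eng_BM-HSC and ESC were close to these, at 95.4%, 96.1% and 10.4%, so the difference was not particular to pair-bearing cells.

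Among cells with Kit and Ly6a, fetal liver and engrafted marrow differed in Cd34. Cd34 was not detected in 1 of 21 such FL_HSC cells (4.76%, 0.120% to 23.8%) and in 12 of 28 Eng_BM-HSC cells (42.9%, 24.5% to 62.8%). Within Eng_BM-HSC Cd34 was in 57.8% of the 45 cells with Ly6a and 83.9% of the 31 without it, whereas in FL_HSC the shares were 95.7% of 23 and 90.6% of 64. Both transcripts were found in 34.2% of Eng_BM-HSC cells, against 40.5% from the product of their separate shares. This is 1 of 45 pairs of the genes, no interval was computed for these shares, and an association was not tested. Tek was likewise in 13 of 21 pair-bearing FL_HSC cells and 2 of 28 Eng_BM-HSC cells (7.14%, 0.877% to 23.5%), and Slamf1 in 12 of 21 and 2 of 28. Over all cells of FL_HSC and Eng_BM-HSC the groups differed in the same direction, with Cd34 in 92% and 68.4%, Tek in 47.1% and 5.26%, and Slamf1 in 42.5% and 6.58%. The pair-bearing Eng_BM-HSC cells had a median of 2634 genes and the FL_HSC ones 4498, and the part of gene number in these shares was not tested.

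The SLAM code of adult HSC, Slamf1 without Cd48, was met by 18 of 87 FL_HSC cells (20.7%, 12.7% to 30.7%), 5 of 76 Eng_BM-HSC cells (6.58%, 2.17% to 14.7%), and no ESC or Eng_ES-HSC cell. Slamf1 and Cd48 occurred together in 21.8% of FL_HSC cells, against 23.5% from the product of their separate shares. Of Slamf1-bearing FL_HSC cells 51.4% had Cd48, and of those without Slamf1 58% had it, so the shares with and without Slamf1 were close. In Eng_BM-HSC no cell had both, while the product of the shares would give 1.21%. Adding Kit and Ly6a to Slamf1 without Cd48 left 5 FL_HSC cells (5.75%, 1.89% to 12.9%) and 2 Eng_BM-HSC cells (2.63%, 0.320% to 9.18%). Adding Procr as well left 2 FL_HSC cells and none elsewhere. A transcript missed in a cell counts here as absence, so these shares are not shares of cells by surface protein.

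**Figure D4:**
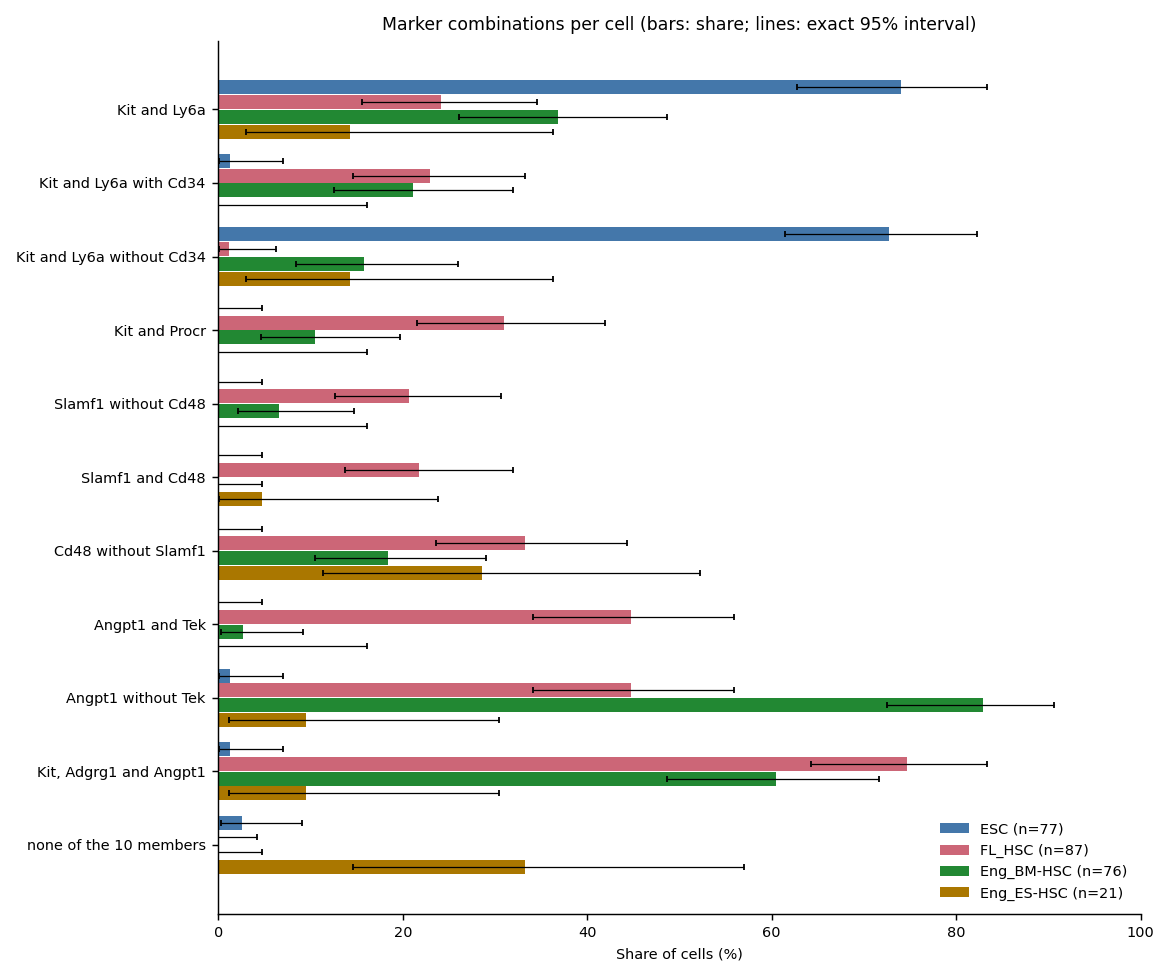
Share of kept cells, in percent, with 11 combinations of the genes, as bars from 0 with the exact 95% interval as a line, for the 4 groups. Kit with Adgrg1 and Angpt1 is found in 74.7% of FL_HSC and 60.5% of Eng_BM-HSC cells but in 9.52% of Eng_ES-HSC cells and 1.30% of ESC, while Kit with Ly6a is most frequent in ESC.

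Kit, Adgrg1 and Angpt1 were found together in 65 of 87 FL_HSC cells (74.7%, 64.3% to 83.4%), 46 of 76 Eng_BM-HSC cells (60.5%, 48.6% to 71.6%), 2 of 21 Eng_ES-HSC cells (9.52%, 1.17% to 30.4%) and 1 of 77 ESC (1.30%). At matched gene number 7 of 21 FL_HSC cells had all 3 (33.3%), 47.6% of Eng_BM-HSC and 9.52% of Eng_ES-HSC. With Cd34 in the place of Angpt1 the shares were 74.7%, 43.4%, 4.76% and 0.0% in the order FL_HSC, Eng_BM-HSC, Eng_ES-HSC and ESC.

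Ligand and receptor of the angiopoietin axis were found in the same cell in 39 of 87 FL_HSC cells (44.8%, 34.1% to 55.9%), 2 of 76 Eng_BM-HSC cells (2.63%, 0.320% to 9.18%) and no cell of the other groups. Of the 41 FL_HSC cells with Tek 39 also had Angpt1 (95.1%), and Angpt1 was in 89.7% of all FL_HSC cells. The pair's share of all FL_HSC cells, 44.8%, was close to the 42.3% that the product of the separate shares gives. In Eng_BM-HSC 63 cells (82.9%, 72.5% to 90.6%) had Angpt1 without Tek. ESC showed the reverse, with Tek and no Angpt1 in 21 cells. The ligand of KIT, Kitl, was by contrast nearly silent, in 2 ESC, 1 FL_HSC cell and none of the engrafted cells. Angpt2, the angiopoietin that can oppose ANGPT1, was in 23% of FL_HSC, 13.2% of Eng_BM-HSC, 23.8% of Eng_ES-HSC and 29.9% of ESC cells.

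Procr accompanied Kit in fetal liver: 27 of 28 Procr-bearing FL_HSC cells had Kit (96.4%, 81.7% to 99.9%), and 38.6% of the 70 Kit-bearing cells had Procr. Of the FL_HSC cells without Kit 5.88% had Procr. Cells without Kit also had fewer genes, with a median of 1502 against 4384. In Eng_BM-HSC 8 of 12 Procr-bearing cells had Kit, and 16.3% of Kit-bearing and 14.8% of other cells had Procr. All 7 Fgd5-bearing FL_HSC cells had Kit, Cd34, Adgrg1 and Angpt1, and 3 of them had Procr.

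The Eng_ES-HSC cells were few enough to be taken singly. Cells 40 and 25 had the most members, 5 each. Cell 40 had Kit (21.5 TPM), Cd48 (19.2 TPM), Cd34 (1.20 TPM), Adgrg1 (32.4 TPM) and Angpt1 (2.78 TPM), and with 3970 genes it was the richest profile of the group. It also had 5 of 6 mast cell and basophil markers, at 4210.2 TPM in sum, a list of which no other cell of the group had more than 1. Mast cells carry KIT, and the part of that cell type in its Kit value was not tested.

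Cell 25 had Kit (224.0 TPM), Ly6a (24.1 TPM), Cd48 (8.03 TPM), Adgrg1 (25.7 TPM) and Angpt1 (109.6 TPM), along with 5 of 14 HSC transcription factors and 5 of 8 T and NK cell markers. Cell 44 had Kit (11.7 TPM), Cd48 (204.0 TPM) and Adgrg1 (362.1 TPM), and at 7 of 14 the most HSC transcription factors of the 21 cells, with cell 40 next at 6. Cell 44 also had 3 erythroid markers at 5351.0 TPM in sum and 3 granulocyte markers at 37.7 TPM in sum. The only cell with Slamf1 was cell 33, joined from a near-identical pair, which had no Kit and 8 of 12 granulocyte markers at 180448.2 TPM in sum. Cell 3 had the highest Kit value of all kept cells, 3435.7 TPM, with Ly6a at 3783.5 TPM, 1164 genes, 8 granulocyte and 5 erythroid markers, and no HSC transcription factor. The members were thus spread over cells with different other markers, and no Eng_ES-HSC cell held Kit, Ly6a and Cd34 together.

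**Figure D5:**
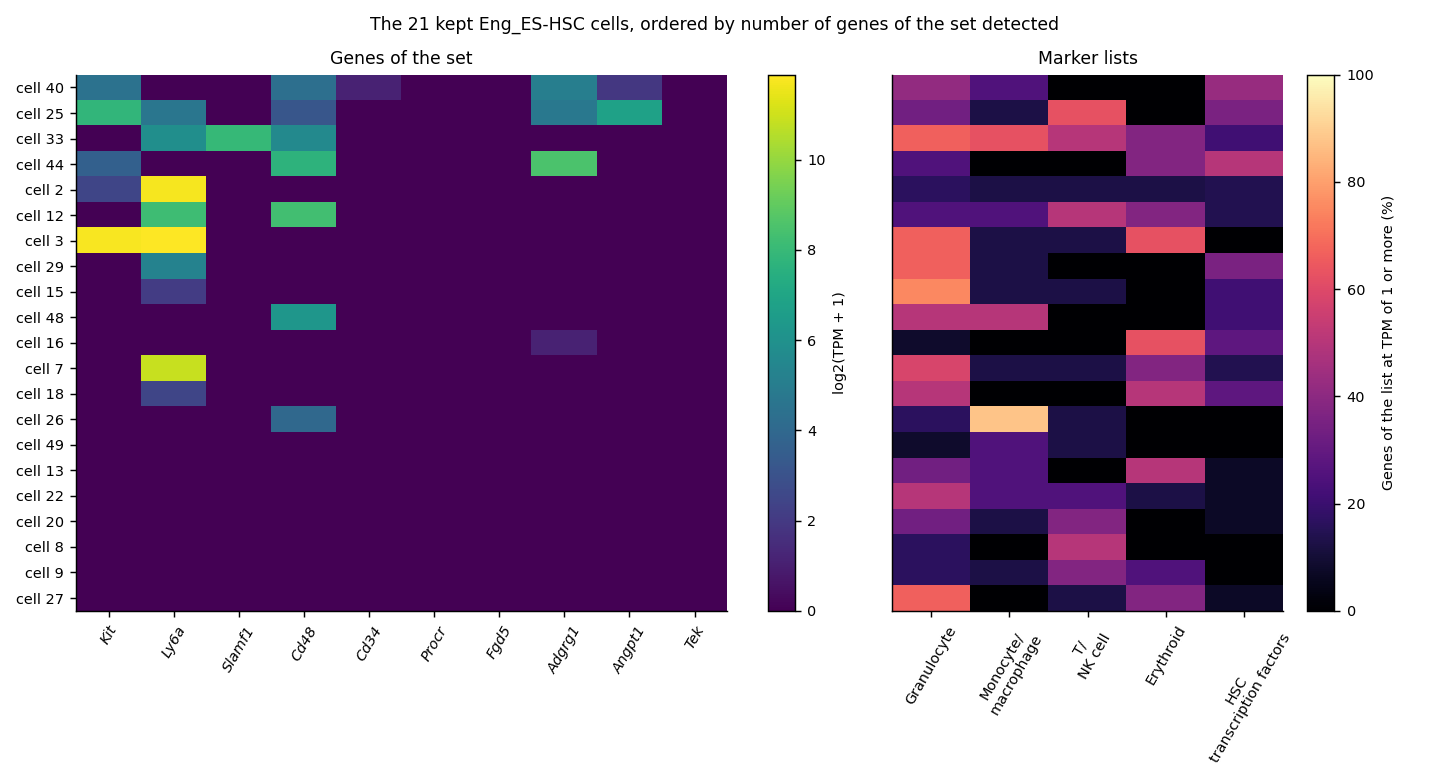
The 21 kept Eng_ES-HSC cells as rows, with the level of the 10 genes as log2(TPM + 1) on the left and, on the right, the percent of the genes in 5 marker lists that were detected (12 granulocyte, 8 monocyte and macrophage, 8 T and NK cell, 8 erythroid genes and 14 HSC transcription factors). The 7 cells at the bottom have no gene of the set, and the granulocyte list is detected in part in every cell.

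Markers of mature blood cells stood beside the low values of the set in Eng_ES-HSC. The summed level of the 12 granulocyte markers had a median of 851.3 TPM in Eng_ES-HSC (1.85 to 528684.5), 35.8 TPM in FL_HSC (0.0 to 835.9), 6.12 TPM in Eng_BM-HSC (0.0 to 2511.7) and 1.75 TPM in ESC (0.0 to 76.9). S100a8 and S100a9 had the highest means of the list in Eng_ES-HSC, 23514.2 and 27973.3 TPM. Against Eng_BM-HSC 8 of the 12 genes were higher by at least 1, 1 was lower (Csf3r) and 3 were neither, where 2.22% of all genes were higher and 8.55% lower. All 12 genes were detected in some Eng_ES-HSC cell, Ly6g in only 1 of 21, while Ltf, Elane and Ctsg were at 0 or under 1 TPM in every Eng_BM-HSC cell. At least 2 of these markers were found in 5 of 5 Eng_ES-HSC cells with Kit and 14 of 16 without it. At least 2 of the 8 monocyte and macrophage genes were detected in 8 of 21 cells (38.1%). The same held for the 8 erythroid genes in 10 cells (47.6%) and the 8 T and NK cell genes in 7 (33.3%). B cell genes were detected in none. In FL_HSC, Eng_BM-HSC and ESC the monocyte and macrophage shares were 26.4%, 19.7% and 18.2%. The erythroid shares were 66.7%, 1.32% and 7.79%, and those of T and NK cell genes 1.15%, 3.95% and 37.7%. The erythroid share was thus highest in FL_HSC and the T and NK share in ESC. The part of mature cells in the low values of Kit, Cd34, Adgrg1 and Angpt1 was not tested.

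Other surface genes of HSC and progenitors, from a list of 19, moved in part as the members did. In Eng_ES-HSC against Eng_BM-HSC 7 were lower by at least 1, among them Flt3, Cd27, Esam, Eng, Cd93 and Csf3r, 2 were higher (Il7r and Cxcr4) and 10 were neither, where 8.55% of all genes were lower and 2.22% higher, with a list median of -0.17 against -0.10 over all genes. Esam, an adhesion molecule of HSC and vessels, was detected in 70.1% of FL_HSC, 30.3% of Eng_BM-HSC, 6.49% of ESC and no Eng_ES-HSC cell, where 0 of 21 allows up to 14.3%. Cxcr4, the receptor of the niche chemokine CXCL12, ran the other way, with 52.4% of Eng_ES-HSC (29.8% to 74.3%) against 19.7% of Eng_BM-HSC (11.5% to 30.5%).

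In FL_HSC against ESC the list had 6 higher and 2 lower genes of 19, where 10.7% of all genes were higher and 17.7% lower. In Eng_BM-HSC against FL_HSC it had 1 higher and 5 lower, where 1.84% and 29.1% of all genes were. Of 13 ligands and partners of the members 11 passed the level filter, and none of these 11 differed by 1 between the engrafted groups. Of 10 SLAM family and adaptor genes 5 passed, and again none differed between the engrafted groups. Of all genes 8.55% were lower and 2.22% higher in Eng_ES-HSC there, so counts of 0 in such short lists lie near these shares. Cd84, another SLAM family receptor, was in 49.4% of FL_HSC, 61.8% of Eng_BM-HSC, 57.1% of Eng_ES-HSC and 77.9% of ESC cells, unlike Slamf1 and Cd48. Among 20 genes of KIT and TEK signal transduction Eng_ES-HSC had 9 lower than FL_HSC by at least 1 and 0 higher, where 35% of all genes were lower. The median of this list was -0.86 there and -0.19 against Eng_BM-HSC, where those of the 10 members were -2.22 and -0.76.

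The genes most like the members across cells were sought among 2944 genes detected in at least 25% of the cells of both FL_HSC and Eng_BM-HSC, by the Pearson r of log2(TPM + 1) over 87 and 76 cells. Slamf1, Cd48, Procr, Fgd5 and Tek were detected too rarely for this. Kit was most like Skp1a (r = 0.57 in FL_HSC and 0.41 in Eng_BM-HSC), Myh9 (0.58 and 0.39) and Pfdn5 (0.47 and 0.47). Angpt1 was most like B2m (0.55 and 0.57), Ifitm3 (0.62 and 0.48) and Ywhae (0.64 and 0.45), and Adgrg1 was most like Tlcd1 (0.65 and 0.46), Tmsb4x (0.58 and 0.52) and Ubb (0.71 and 0.38). Cd34 was most like the surface receptor Cd93 (0.50 and 0.37) and Tpm3 (0.47 and 0.38), and Ly6a like Shisa5 (0.32 and 0.40). These are widely detected genes in the main, and the members' own r with the number of genes per cell reached 0.53 in FL_HSC and 0.40 in Eng_BM-HSC (Adgrg1 in both). The points share a library and a gene number, and the values describe these cells only.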

How the data were processed

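The data were 1 table of 22073 rows and 316 cells, of which 92 rows were ERCC spike-ins and 11 were reporter or selection cassettes. The authors deposited natural log values. The labels state neither the base nor the constant, which were read from the values. Undoing ln(TPM + 1) gave totals between 414503 and 962583 TPM per cell. HISAT 0.1.6, Salmon 0.3.2 and GRCm38 appear in the submitters' processing notes with no role given. Annotation, library kit and strand setting are not given in the sources.

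Values were converted to TPM and to log2(TPM + 1), with a pseudocount of 1, which understates differences of low genes. Detection was set at a TPM of 1. TPM keeps no depth, so depth is unknown. Cells of a group whose profiles correlated above a Pearson r of 0.9 (ESC 22 with 64, Eng_ES-HSC 31 with 34 and 33 with 36) were averaged and counted once, and of 313 cells 261 with at least 1000 genes were kept. Doublets were not called, since there were no UMI counts, and cells were not clustered.

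No animal or culture is named in the labels. Each group is therefore 1 sample and no p-value was computed. Shares have exact Clopper-Pearson 95% intervals, and a share of 0 allows up to 3 cells of the total, both for counting error only. The upper bound for 0 given as an interval is the exact one. The 6 comparisons are differences of group means of log2(TPM + 1). They cover 13239 genes, those whose mean reached 1 TPM in any group, and a difference of at least 1 was counted. Cells were matched on gene number by taking, for each of the 21 Eng_ES-HSC cells, an FL_HSC and an Eng_BM-HSC cell of similar gene number. All 10 genes were described, and the genes most like them were up to 3 per gene with the highest mean r over FL_HSC and Eng_BM-HSC, named where r was at least 0.3 in each of the 2 groups.

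Coordinates are from GENCODE M21, and promoter sequences from RefSeq (GRCm38.p6). The members and gene lists were chosen with earlier results of these data known. Alternatives were other filters on cells and genes, other pseudocounts and detection limits, log2 of mean TPM, and rescaling over gene rows. One, leaving out the cell with the highest value of each gene, was chosen after seeing the data. A few genes of the further lists are not reported here. The steps were checked on simulated data. Python 3.11.15, numpy 2.4.6, pandas 2.3.3, scipy 1.17.1 and matplotlib 3.10.9 were used.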

Additional observations from a re-analysis of the deposited data

How the results depend on the processing

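The study has 1 sample per group, so no replicate could be left out, and depth is unknown. Of 60 differences between groups over the 10 genes 35 were at least 1 in size, and 17 of these stayed so in the same direction under all 12 alternatives: every one of Adgrg1 and Angpt1, those of Cd34 except Eng_BM-HSC minus FL_HSC, those of Slamf1, Cd48 in FL_HSC minus ESC and Ly6a in Eng_BM-HSC minus FL_HSC. Over all 708 recomputed differences 667 shifted by no more than the SD over cells, 29 shifted by more and 12 that had been at least 1 turned in sign. Of 864 recomputed shares of cells with a combination 103 moved beyond the 95% interval.

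With log2 of mean TPM, which a few high cells can set, Kit turned to 0.93 in Eng_ES-HSC minus Eng_BM-HSC, 1.23 in Eng_ES-HSC minus FL_HSC and 2.58 in Eng_ES-HSC minus ESC. In Eng_BM-HSC minus FL_HSC it turned Cd48 to 0.50, Procr to 0.91 and Tek to 0.19, and Ly6a turned to 0.57 in Eng_BM-HSC minus ESC and 0.43 in Eng_ES-HSC minus ESC. The members lower by 1 in Eng_BM-HSC minus FL_HSC were then 2, and also 2 with a pseudocount of 10. Among cells with 1000 to 3000 genes, where 6 ESC and 18 FL_HSC cells are left, Ly6a turned to 0.20 in FL_HSC minus ESC, 3.30 in Eng_BM-HSC minus ESC and 2.06 in Eng_ES-HSC minus ESC. In cells matched on gene number Kit turned to -1.29 in FL_HSC minus ESC. In both of these subsets 4 members were lower in Eng_ES-HSC minus FL_HSC and 1 in Eng_BM-HSC minus FL_HSC. Shares of all genes were not computed under the alternatives, so counts of members there have no such share beside them. The cause was not tested.

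The share with Kit, Adgrg1 and Angpt1 was 48.4% of Eng_BM-HSC with no minimum of genes. With at least 2000 genes it was 85.5% of FL_HSC and 72.4% of Eng_BM-HSC. With 1000 to 3000 genes it was 22.2% of FL_HSC, 0.0% of ESC and 0.0% of Eng_ES-HSC. Matched on gene number it was 33.3% of FL_HSC and 47.6% of Eng_BM-HSC. It was 83.6% of FL_HSC without cells over 50% mitochondrial, 85.1% of FL_HSC with detection above 0, and 34.2% of Eng_BM-HSC and 0.0% of ESC with detection at 10 TPM. The share with Kit and Ly6a was 16.7% of ESC and 11.1% of FL_HSC with 1000 to 3000 genes, 9.52% of FL_HSC when matched, and 40.3% of ESC and 17.1% of Eng_BM-HSC at 10 TPM. The median number of members was 1 in ESC and 3.5 in FL_HSC with 1000 to 3000 genes, 4 in FL_HSC when matched and 1 in ESC at 10 TPM. No paired analysis was possible because each group is 1 sample.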
